A study of Mus musculus with 5 samples.

Results

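The common monocyte progenitor (cMoP) and the common dendritic cell progenitor (CDP) of mouse bone marrow were compared, 1 expression array each. For every gene the log2 value of CDP was subtracted from that of cMoP, and the comparison was kept to genes whose higher value of both lay at or above 6.27, the median of all gene values on the 5 arrays of the series, called the floor here. This left 10441 of 19938 named genes, and the other 9497 were too dim on both arrays. All cells came from wild-type C57Bl/6 bone marrow, were used untreated, and were sorted as lineage-negative, CD115-positive cells to a stated purity above 95%. The cMoP gate was CD117-positive and CD135-negative, and the CDP gate was CD117-intermediate and CD135-positive. The other 3 arrays hold the monocyte-dendritic cell progenitor (MDP, CD117-positive and CD135-positive), the classical monocyte (Ly6C-positive, TremL4-negative) and the nonclassical monocyte (Ly6C-negative, TremL4-positive). No sample description used here gives the sex, age or number of the mice or says whether cells were pooled. With 1 array a population there is no replicate check, so no test, p-value or standard deviation is given, and "higher" or "lower" means a difference of 1 log2 unit (2-fold) or more between these arrays.

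Both progenitors descend from cells with MDP properties, and each is committed to a branch. The cMoP gives rise to monocytes and resembles the granulocyte-monocyte progenitor in making the proteases and peroxidase of the primary (azurophil) granules, which are folded and glycosylated in the endoplasmic reticulum before they are packed. The CDP depends on Flt3 ligand and gives rise to conventional and plasmacytoid dendritic cells, which present antigen on class II molecules and sense nucleic acids.

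Of the 10441 genes, 337 (3.23%) were higher in cMoP and 230 (2.20%) were lower. These shares of all genes are the background for every list count below. At 4-fold or more the numbers were 40 higher (0.383%) and 45 lower (0.431%). The median difference over all genes was 0.015, with 5400 differences above 0, 4283 below 0 and 758 equal. In 70 of the 337 higher genes the CDP value lay under the floor, and in 85 of the 230 lower genes the cMoP value did. Folds of those genes are given as "at least", with the dim value set to the floor. They are counted by their deposited values, so the bound of a counted gene can lie under 2-fold. Hgf, Slamf7, Irf7, Bach2 and Lifr, named below, are examples. Fewer cells of a type and less RNA per cell cannot be told apart in such bulk samples.

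**Figure D1:**
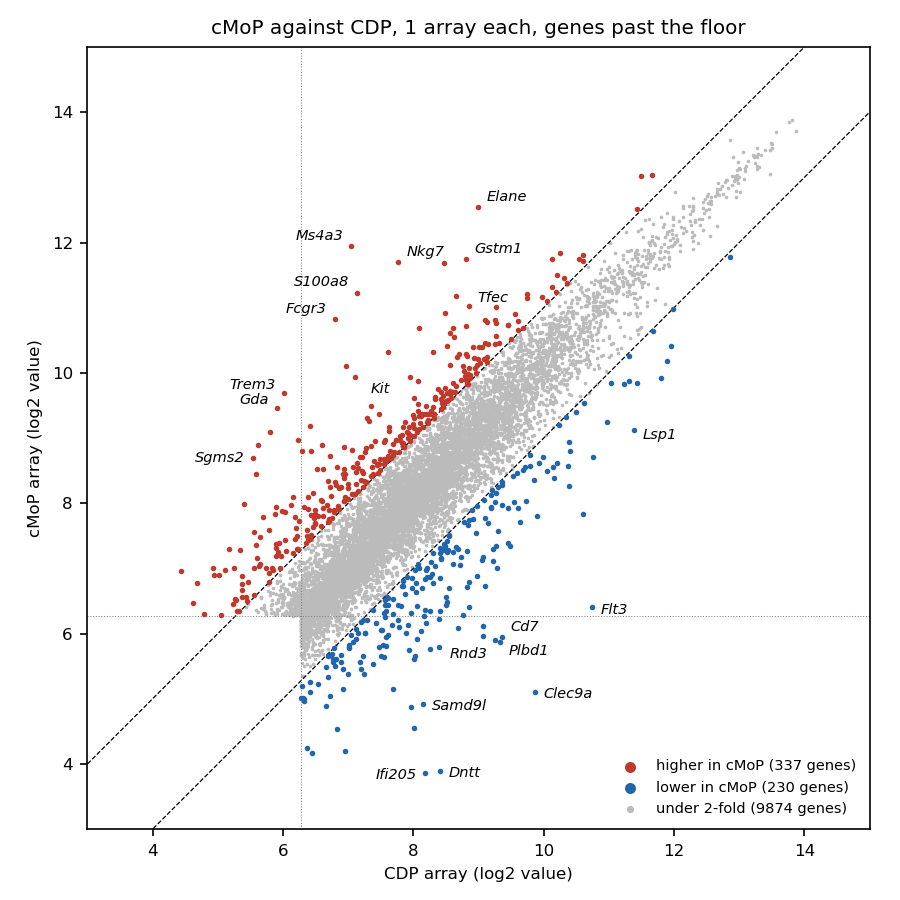
Log2 values of the 10441 genes past the floor on the cMoP array (vertical axis) and the CDP array (horizontal axis), with dashed lines at a 2-fold difference and dotted lines at the floor of 6.27. The 337 red genes were higher in cMoP, the 230 blue genes were lower, and the genes farthest from the diagonal include Ms4a3 and Elane above it and Clec9a and Flt3 below it.

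The genes of the gates had the values the sorts call for. Flt3, which encodes CD135, was at 6.40 in cMoP and 10.74 in CDP. Kit, which encodes CD117, was at 9.37 in cMoP and 8.16 in CDP. Csf1r, which encodes CD115, was at 10.03 in cMoP and 10.51 in CDP. Flt3 and Kit were part of the sort and are no finding. Of 9 markers of cMoP and of the granulocyte-monocyte progenitor, all 9 were at or above the floor in cMoP and 8 in CDP. Of 9 CDP markers, 3 (Flt3, Batf3 and Irf8) were at or above it in cMoP and 8 in CDP, Zbtb46 being the exception. By difference, 6 of the 9 cMoP markers were higher in cMoP and 0 lower, and of the 8 CDP markers past the floor 6, Flt3 of the gate among them, were lower in cMoP and 0 higher. Irf8, at 10.45 in cMoP and 11.07 in CDP, stands in both marker lists.

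Markers of other marrow cells were mostly dim on both arrays. Of 7 neutrophil markers 4 were at or above the floor in cMoP and 3 in CDP, with a range of 4.70 to 7.02 in cMoP and 4.72 to 6.89 in CDP. Ltf was at 4.78 in cMoP and 4.72 in CDP, Ngp at 5.09 and 5.89, and Retnlg at 4.70 and 4.73. These 3 were under the floor in both progenitors. Camp, Mmp8 and Cd177 were at or above it in both, and Cxcr2, at 6.88 in cMoP and 5.37 in CDP, in cMoP alone. Of 7 T and NK cell markers 0 were at or above the floor in cMoP and 1 (Cd8a) in CDP, and of 5 erythroid markers 0 were on either array. Nkg7, a gene of cytotoxic and myeloid cells that is given below, stood in the T and NK cell list as planned. It was left out of the 7 counted here, and it was past the floor on both arrays and higher in cMoP. Of 5 B cell markers the same 2, Cd79b and Vpreb1, were at or above it on both arrays. Of 6 macrophage markers 0 were at or above it in cMoP and 1 (Cd163) in CDP. The markers of basophils and mast cells (2 of 5), eosinophils (1 of 3) and platelets (1 of 4) had the same counts on both arrays.

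Members of the primary granule list lay on the cMoP side without exception. The list also holds genes of other kinds, among them Gfi1, Clec12a, Calr and Gstm1. Its members were chosen with earlier results of these data known, so the counts describe this list and are no test of granule genes. All 22 measured members of this list were past the floor, all 22 differences were positive, and 12 were higher in cMoP with 0 lower, against the 3.23% and 2.20% of all genes. The median difference of the list was 1.30, and its median level was 11.61 in cMoP and 9.39 in CDP. Elane and Prtn3 lie next to each other and encode neutrophil elastase and proteinase 3, serine proteases of the granule. Their upstream sequences are shown because both hold the letters GAGGAAGT, a site form of PU.1, the myeloid factor encoded by Spi1. The stretches are 120 bases before the start of the gene, from RefSeq on GRCm38.p6, 5′ to 3′ along the gene, with the motif in capitals. The Elane stretch is chr10:79886171-79886290 and the Prtn3 stretch chr10:79879516-79879635, both on the plus strand.
Elane: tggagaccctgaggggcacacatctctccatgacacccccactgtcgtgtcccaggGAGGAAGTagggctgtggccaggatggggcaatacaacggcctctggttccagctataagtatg
Prtn3: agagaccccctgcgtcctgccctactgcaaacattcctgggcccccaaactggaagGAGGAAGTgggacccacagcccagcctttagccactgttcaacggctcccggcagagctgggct

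GAGGAAGT was searched on both strands of the 250 bases before each start. It was present in 3 of 18 primary granule genes with a promoter sequence (Elane, Prtn3 and Mpo), in 2.62% of the genes higher in cMoP, in 6.70% of the genes lower in cMoP, and in 3.10% of all genes past the floor. The letters were thus no more frequent among the higher genes than among all genes. Spi1 itself was at 10.68 in cMoP and 10.39 in CDP.

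Elane had a value of 12.55 in cMoP and 8.99 in CDP, an 11.8-fold difference. Nkg7, a granule membrane protein of cytotoxic and myeloid cells, was at 11.70 in cMoP and 7.77 in CDP. Hdc, the enzyme that makes histamine, was at 9.09 in cMoP and 5.80 in CDP, at least 7.06-fold higher. These 3 genes were far above their CDP values, and on the MDP array each lay between cMoP and CDP (11.10, 9.97 and 6.57). Cd63, a tetraspanin of the granule membrane, was at 10.10 in cMoP and 6.96 in CDP. Prss57, a serine protease of azurophil granules, was at 9.94 in cMoP and 7.10 in CDP. Ms4a3, a membrane protein that marks granulocyte-monocyte progenitors, had the largest difference of all genes, with 11.94 in cMoP and 7.05 in CDP. Proteases that CDP already carried at a high level differed by less. Ctsg, cathepsin G, was at 13.03 in cMoP and 11.49 in CDP, and Prtn3 at 13.04 and 11.66. Mpo, myeloperoxidase, was at 13.58 in cMoP and 12.86 in CDP, a difference of 0.72 that did not reach 2-fold. All of these genes were lower in the classical monocyte than in cMoP, with Elane at 10.19, Ms4a3 at 7.41 and Mpo at 11.16.

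Genes that neutrophils and monocytes switch on later formed another set. Of 27 measured members, 17 were past the floor, 11 were higher in cMoP and 0 were lower (median 1.53). Without the floor the median over all 27 was 0.27, since the other 10 members were dim on both arrays. S100a8, a calcium-binding protein of the phagocyte cytoplasm, was at 11.23 in cMoP and 7.14 in CDP. Its partner S100a9 was at 8.41 in cMoP and 7.65 in CDP, so the pair differed unequally on these probe sets. Trem3, an activating receptor, was at 9.68 in cMoP and 6.01 in CDP. Chil3, a chitinase-like secreted protein, was at 8.90 in cMoP and 5.61 in CDP. Hp, haptoglobin, was at 11.68 in cMoP and 8.47 in CDP. In contrast to the primary granule genes, S100a8, Chil3 and Hp were higher still in the classical monocyte, at 12.64, 12.80 and 12.17. Lcn2, the iron-withholding lipocalin, followed the same order, with 8.97 in cMoP, 6.23 in CDP and 10.45 in the classical monocyte. Mmp8 was at 7.02 in cMoP and 6.75 in CDP and Camp at 6.29 and 6.33, so members of the list tied to the last stages of granule formation were near the floor in both. The part of any neutrophil precursors within the cMoP gate was not tested.

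The monocyte list was divided. Of 25 members past the floor, 6 were higher in cMoP (Gda, Hp, Mgst1, Clec4e, Cybb and Ms4a6d) and 2 were lower (Fn1 and Cx3cr1), and the median was -0.098. Gda, guanine deaminase, was at 9.45 in cMoP and 5.91 in CDP, at least 9.09-fold higher. Cybb, the catalytic subunit of the phagocyte oxidase, was at 10.46 in cMoP and 9.11 in CDP. Fn1, fibronectin, was at 7.39 in cMoP and 9.45 in CDP, and Cx3cr1, the fractalkine receptor, at 8.57 and 10.37. Fn1 and Cx3cr1 are used as monocyte genes, yet CDP had the higher value, and in the classical monocyte they were at 12.69 and 10.54.

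**Figure D2:**
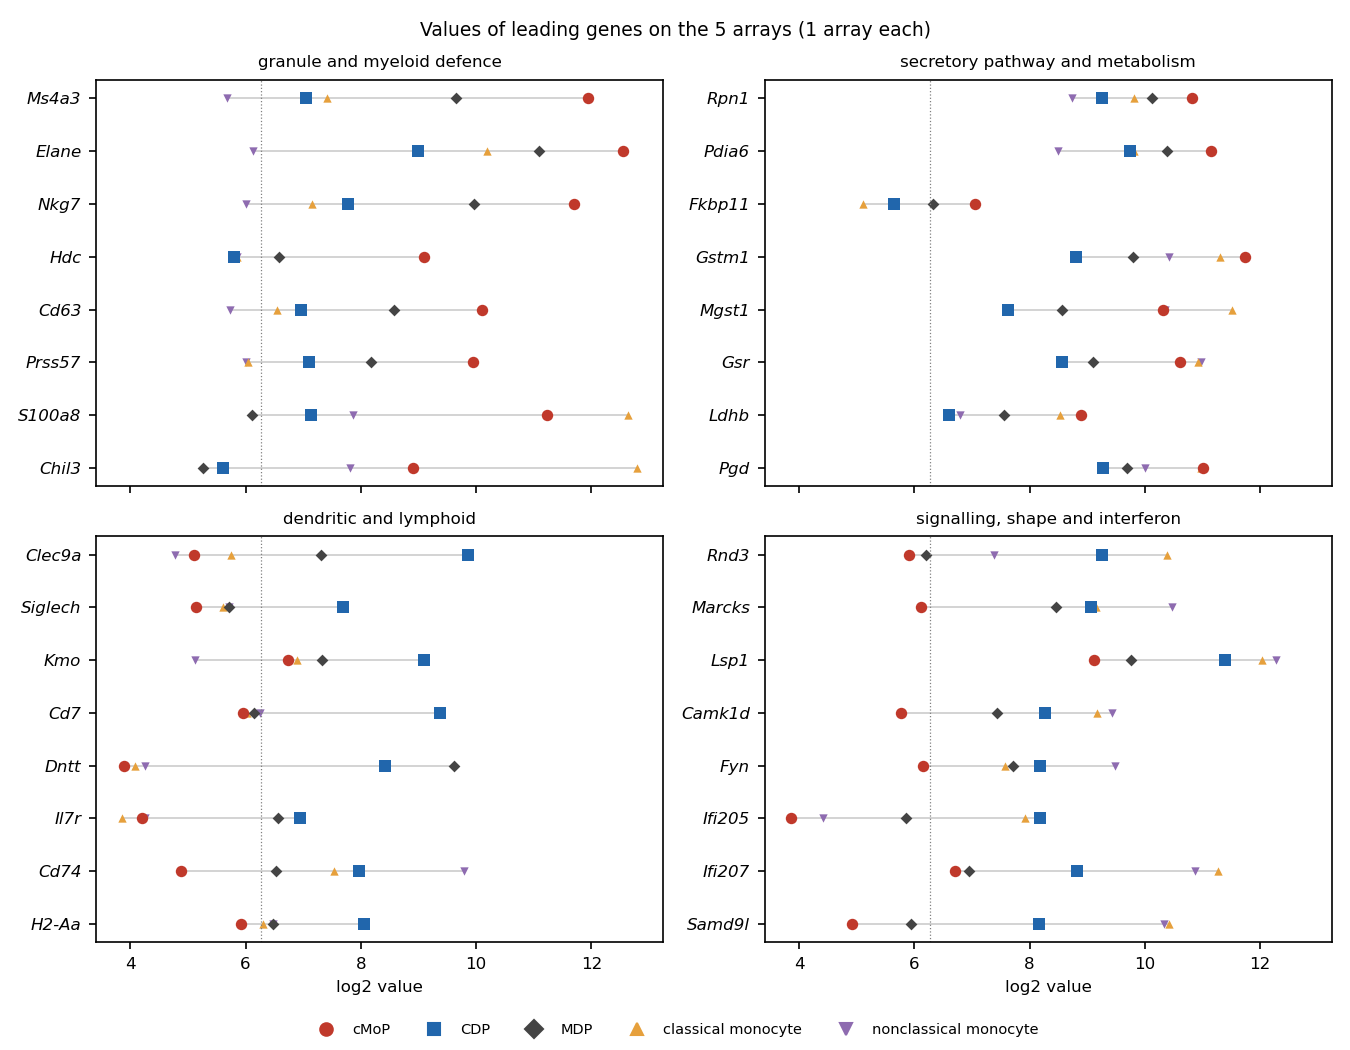
Log2 values of 32 genes on the cMoP, CDP, MDP, classical monocyte and nonclassical monocyte arrays, 1 symbol an array, with a dotted line at the floor of 6.27. Granule and secretory genes have cMoP to the right of CDP, with Elane at 12.55 and 8.99, and dendritic, lymphoid, signalling and interferon genes have cMoP to the left, with Clec9a at 5.11 and 9.86.

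Genes of the secretory pathway in the endoplasmic reticulum had higher values in cMoP as a group. All 59 measured members were past the floor, 13 were higher in cMoP, 0 were lower, and 53 differences were positive. The median difference was 0.58, with a median level of 10.44 in cMoP and 9.67 in CDP. Differences over all genes rose with signal level, and the median was 0.16 for the brightest 2088 of the 10441 genes and -0.040 for the dimmest 2089. With each gene's difference taken relative to genes of the same level, an alternative chosen after seeing the data, the list's median was 0.43 and 9 members stayed past 2-fold.

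The 13 members past 2-fold included genes of chain entry, glycan transfer and folding. Rpn1, a subunit of the complex that adds N-linked glycans, was at 10.81 in cMoP and 9.26 in CDP. Ssr2, a subunit of the complex at the translocation channel, was at 11.81 in cMoP and 10.61 in CDP. Pdia6, which forms and rearranges disulfide bonds, was at 11.15 in cMoP and 9.75 in CDP. These genes take part in the entry and first modification of a new chain. Pdia5, another disulfide isomerase, was at 8.12 in cMoP and 6.74 in CDP. Ero1a, which supplies the oxidising equivalents, was at 10.10 in cMoP and 8.77 in CDP. Fkbp11, a prolyl isomerase of secretory cells, was at 7.06 in cMoP and 5.64 in CDP, at least 1.73-fold higher. Sdf2l1 and Hyou1 act with the chaperone BiP. Sdf2l1 was at 9.70 in cMoP and 8.43 in CDP, and Hyou1 at 9.33 and 8.09. Hspa5, which encodes BiP, was at 11.72 in cMoP and 10.60 in CDP. On the MDP array Rpn1 was at 10.13 and Pdia6 at 10.38, between both progenitors. In the nonclassical monocyte they were at 8.74 and 8.50.

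The endoplasmic reticulum stress element, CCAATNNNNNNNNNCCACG, is bound by ATF6 and induces chaperone genes. Of 48 members with a promoter sequence, 8 held it within 250 bases before the start on either strand, and these were Hspa5, Hsp90b1, Pdia6, Calr, Canx, Dnajc3, Creld2 and Syvn1. Over all genes past the floor 0.142% of promoters held it, and over all promoters tabulated 0.130%. It was present in 2 of 267 promoters of the genes higher in cMoP (0.749%) and in 0 of 179 of the lower genes. The 8 genes had positive differences of 0.51 (Syvn1) to 1.40 (Pdia6), and 2 of them, Pdia6 and Hspa5, were past 2-fold, which are shown here for that reason. The stretches are chr2:34771970-34772089 for Hspa5 and chr12:17266440-17266559 for Pdia6, plus strand, GRCm38.p6, with the element in capitals. These genes and the ones of the other stretches were chosen after their values were seen.
Hspa5: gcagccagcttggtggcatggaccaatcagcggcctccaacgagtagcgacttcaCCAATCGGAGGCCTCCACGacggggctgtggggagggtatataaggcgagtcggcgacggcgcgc
Pdia6: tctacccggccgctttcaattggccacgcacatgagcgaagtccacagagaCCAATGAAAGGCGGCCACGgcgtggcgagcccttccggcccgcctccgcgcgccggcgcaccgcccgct

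Glutathione and redox genes were the next group. Of 41 measured members, 35 were past the floor, 11 were higher in cMoP and 0 were lower (median 0.46). Relative to genes of the same level the median was 0.32, with 9 higher and 1 lower. After quantile normalization the median was 0.39, also with 9 higher and 1 lower. Gstm1, a glutathione transferase that also stands in the primary granule list, was at 11.74 in cMoP and 8.80 in CDP, a 7.66-fold difference. Gstm3 was at 7.97 in cMoP and 6.12 in CDP, Gstm4 at 8.16 and 6.47, Gstm5 at 7.25 and 5.92, and Gstm2 at 6.76 and 6.09. These mu-class genes are near-identical neighbours whose probe sets can share transcripts, so their separate values are uncertain. The microsomal transferases are not part of that cluster. Mgst1 was at 10.32 in cMoP and 7.62 in CDP, and Mgst2 at 10.68 and 8.60. Gsr, which regenerates reduced glutathione with NADPH, was at 10.61 in cMoP and 8.57 in CDP. Gpx3, a secreted peroxidase, was at 7.87 in cMoP and 5.98 in CDP. Outside the glutathione genes, the metallothionein Mt1 was at 10.69 in cMoP and 8.08 in CDP. Gstm1, Mgst1 and Gsr kept high values in the classical monocyte (11.30, 11.51 and 10.91), whereas Mgst2 was at 8.69 there.

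Genes that supply NADPH and break down sugar included 8 of 33 that were higher in cMoP and 0 that were lower, and the median was 0.47. Relative to genes of the same level the median was 0.26, and 8 members stayed past 2-fold. Pgd, the pentose phosphate enzyme that makes NADPH, was at 11.02 in cMoP and 9.27 in CDP. Idh1, outside this list, also makes NADPH in the cytosol and was at 10.24 in cMoP and 8.67 in CDP. Rpia, of the same pentose pathway as Pgd, was at 8.97 in cMoP and 7.74 in CDP. The glycolytic enzymes past 2-fold act between the phosphofructokinase and the phosphoglycerate mutase steps. Tpi1 was at 10.79 in cMoP and 9.13 in CDP, Aldoa at 11.84 and 10.24, Pgam1 at 11.21 and 9.75, and Pfkl at 7.64 and 6.46. Pygl, which releases glucose units from glycogen, was at 9.30 in cMoP and 7.29 in CDP. Ldhb, a lactate dehydrogenase subunit, was at 8.90 in cMoP and 6.60 in CDP. Its counterpart Ldha was at 10.73 in cMoP and 10.26 in CDP, a difference of 0.47. Ldha and the next 2 genes were named after their values were seen. Hk2 was at 7.68 in cMoP and 7.49 in CDP, and Slc2a1, the glucose transporter, at 8.15 and 7.83, both under 2-fold.

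Genes for making proteins leaned to cMoP with small differences. All 57 ribosome biogenesis genes had a positive difference, with a median of 0.65, but 7 of 57 were past 2-fold. All 23 translation factors had a positive difference as well, with a median of 0.48 and 3 past 2-fold. In the list of tRNA synthetases and amino acid metabolism, 39 of 41 differences were positive, 5 were past 2-fold and the median was 0.59. Relative to genes of the same level the medians were 0.56, 0.30 and 0.44, and 3, 1 and 4 members stayed past 2-fold. The lean was therefore smaller, but present, for genes of matched signal. Asns, asparagine synthetase, was at 7.83 in cMoP and 5.88 in CDP, at least 2.95-fold higher. Shmt2, which feeds the mitochondrial folate cycle, was at 10.39 in cMoP and 9.01 in CDP. Srm, spermidine synthase, was at 10.90 in cMoP and 9.55 in CDP. Utp4 and Wdr12 take part in assembly of the small and large ribosomal subunit. Utp4 was at 9.03 in cMoP and 7.80 in CDP, and Wdr12 at 9.64 and 8.46. On the MDP array the ribosome biogenesis genes had a median level of 9.19, against 9.20 in cMoP and 8.46 in CDP, so MDP lay beside cMoP. Eif5a was at 11.46 in cMoP and 10.32 in CDP for the probe set used, and its difference was 0.50 when its probe sets were averaged.

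Respiratory chain and citrate cycle genes had 59 of 66 positive differences and a median of 0.37, with 3 higher and 0 lower. Relative to genes of the same level the median was 0.23, again with 3 higher and 0 lower. Hadh and Alas1 were larger exceptions among mitochondrial enzymes. Hadh, of fatty acid oxidation, was at 9.49 in cMoP and 7.35 in CDP. Alas1, the first enzyme of haem synthesis, was at 10.71 in cMoP and 8.81 in CDP. Lipid handling genes were mixed past 2-fold, with 2 of 37 higher and 2 lower. Their differences leaned to cMoP, with 26 positive, 10 negative and a median of 0.28. Relative to genes of the same level the median was 0.18. Sgms2, a sphingomyelin synthase, was at 8.69 in cMoP and 5.54 in CDP, at least 5.35-fold higher. Its homologue Sgms1 went the other way, with 6.73 in cMoP and 7.82 in CDP. In the list of cholesterol synthesis, which also holds desaturases, 0 of 27 genes were higher and 2 lower, and these were the neighbouring fatty acid desaturases Fads1 and Fads2. Fads2 was at 6.09 in cMoP and 8.68 in CDP, at least 5.33-fold lower, and Fads1 was at 7.03 and 8.33.

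**Figure D3:**
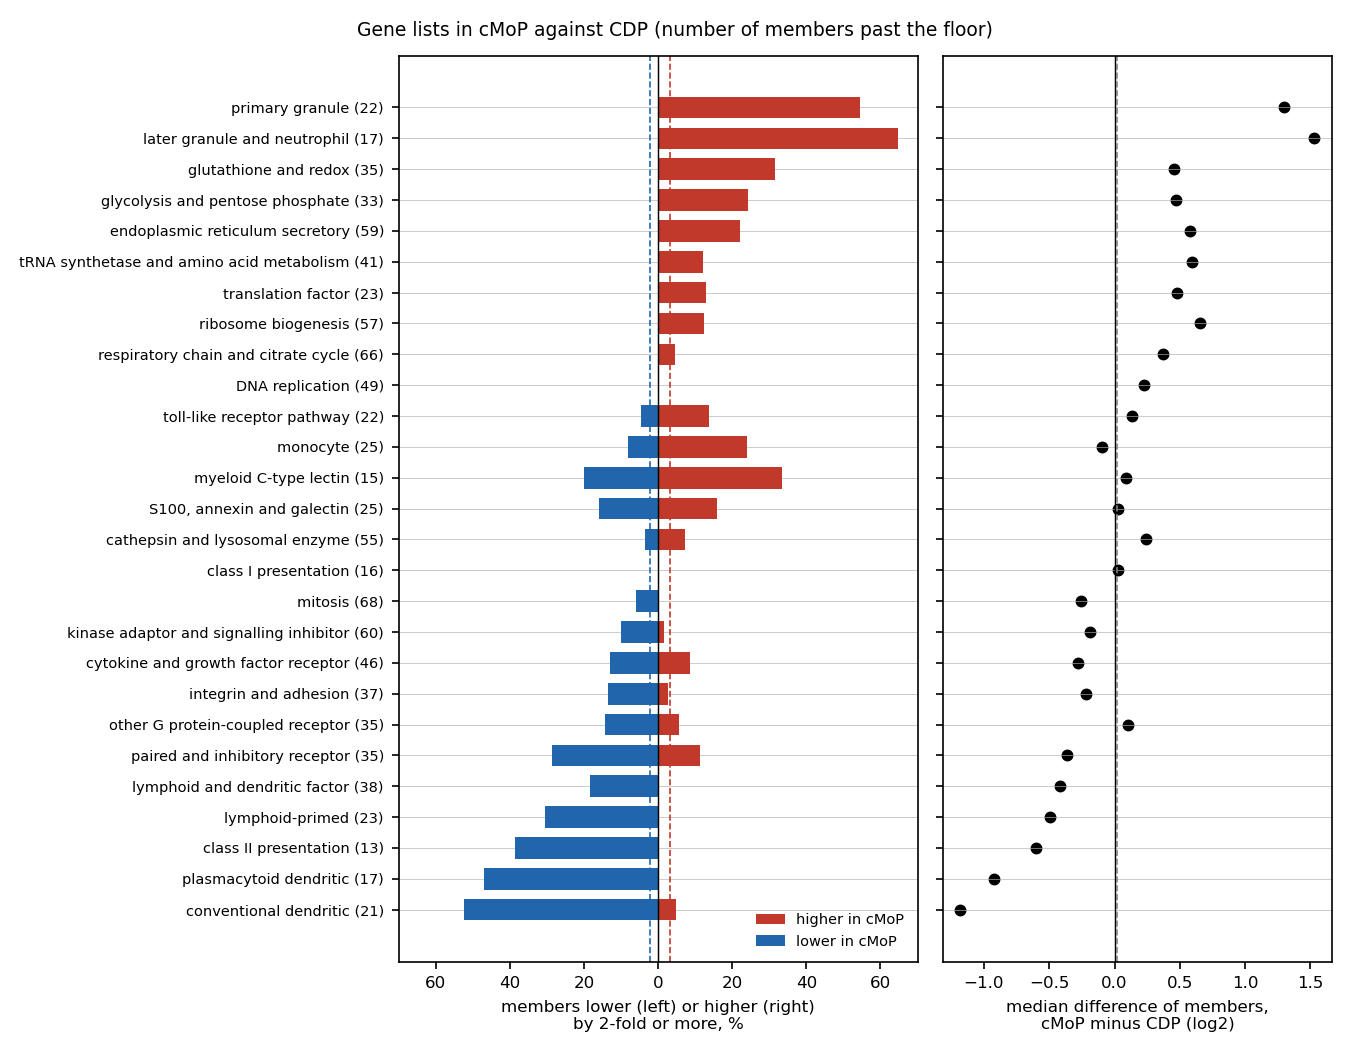
Left, percent of the members of 27 gene lists that were higher (red, right) or lower (blue, left) in cMoP by 2-fold or more, with dashed lines at the 3.23% and 2.20% of all genes and the number of members past the floor in brackets. Right, the median difference of each list in log2 units, with a dashed line at the all-gene median of 0.015, running between 1.53 for later granule genes and -1.18 for conventional dendritic genes.

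On the CDP side, genes of conventional dendritic cells had 11 of 21 members lower in cMoP, 1 higher, and a median of -1.18. Without the floor the median over all 39 measured members was -0.49, since 18 were dim on both arrays. Of the 11 lower members, Flt3 belongs to the gate. Clec9a, the receptor of type 1 dendritic cells for dead cells, was at 5.11 in cMoP and 9.86 in CDP. Plbd1, a lysosomal phospholipase-like protein, was at 5.87 in cMoP and 9.33 in CDP. Kmo, an enzyme of the kynurenine pathway, was at 6.73 in cMoP and 9.09 in CDP. Cd209a, a C-type lectin, was at 5.80 in cMoP and 8.40 in CDP. Rnase6, an antimicrobial ribonuclease, was at 7.83 in cMoP and 10.60 in CDP. Dpp4 (CD26), a surface peptidase of type 1 dendritic cells, was at 7.72 in cMoP and 9.64 in CDP. Of the 18 members dim on both arrays, Zbtb46 was at 5.64 in cMoP and 6.17 in CDP, and Xcr1 at 4.66 and 4.73. The single member higher in cMoP was Clec4a2, a C-type lectin that classical monocytes also carried (10.04), at 8.44 in cMoP and 5.58 in CDP.

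Of 27 measured plasmacytoid dendritic cell genes 17 were past the floor. All 17 differences were negative, 8 reached 2-fold, and the median was -0.92. Without the floor, which also lets in members dim on both arrays, the median over all 27 plasmacytoid dendritic cell genes was -0.65. Siglech, their surface lectin, was at 5.14 in cMoP and 7.68 in CDP. Tcf4, the E protein that specifies them, was at 8.02 in cMoP and 9.54 in CDP. Tlr9, their sensor of unmethylated DNA, was at 7.25 in cMoP and 8.52 in CDP. Cox6a2 (7.11 in cMoP and 9.22 in CDP) and Cd300c (6.88 and 8.98) were also among the 8. Of 36 measured lymphoid-primed genes 23 were past the floor, 7 of them were lower and 0 higher, and the median was -0.50. Without the floor the median over all 36 was -0.33. Dntt, the terminal transferase of early lymphoid cells, was at 3.89 in cMoP and 8.41 in CDP. Cd7 was at 5.95 in cMoP and 9.37 in CDP, and Il7r, the interleukin 7 receptor, at 4.20 and 6.95. Dntt and Il7r were carried by MDP too (9.61 and 6.56), whereas Cd7 was at 6.15 there and so stood out in CDP among the progenitors. Klrd1, a natural killer cell lectin, was at 4.55 in cMoP and lower than in CDP by a difference of -3.45. Of the 7 T and NK cell markers counted, 0 in cMoP and 1 in CDP reached the floor. The planned marker Nkg7, left out of these 7, was past it on both arrays.

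Class II presentation genes had negative differences in all 13 members past the floor, 5 of them past 2-fold, with a median of -0.60. Cd74, the invariant chain, was at 4.88 in cMoP and 7.97 in CDP. H2-Aa was at 5.92 in cMoP and 8.05 in CDP, and H2-Ab1 at 6.64 and 8.04. Ifi30, which reduces disulfides in the antigen compartment, was at 9.24 in cMoP and 10.97 in CDP. Lgmn, the legumain protease, was at 6.00 in cMoP and 7.89 in CDP. Class I presentation genes differed little, with 0 of 16 past 2-fold in either direction and a median of 0.028.

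Genes of the interferon-inducible IFI200 cluster carried some of the largest differences. Of 10 measured members 5 were past the floor, 3 were lower in cMoP and 0 higher. Ifi205 was at 3.87 in cMoP and 8.18 in CDP, at least 3.76-fold lower. Ifi207 was at 6.71 in cMoP and 8.83 in CDP, and Ifi203 at 9.84 and 11.43. The other 2, Aim2 (9.50 in cMoP and 9.32 in CDP) and Ifi209 (10.36 and 10.40), were close on both arrays. Members of this cluster are near-identical copies, so probe sets could share signal. The 3 lower genes were the 3 of the 5 with GAAANNGAAA, the core of an interferon response site, within 250 bases before the start on either strand. It was present in 5.03% of the genes lower in cMoP, 3.37% of the higher genes and 3.14% of all genes past the floor. The stretches below lie on the minus strand at chr1:174031825-174031944 for Ifi205, chr1:173741810-173741929 for Ifi207 and chr1:173942493-173942612 for Ifi203 (GRCm38.p6), with the core in capitals.
Ifi205: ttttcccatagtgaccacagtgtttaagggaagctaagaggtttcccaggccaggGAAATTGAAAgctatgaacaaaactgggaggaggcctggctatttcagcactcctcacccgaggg
Ifi207: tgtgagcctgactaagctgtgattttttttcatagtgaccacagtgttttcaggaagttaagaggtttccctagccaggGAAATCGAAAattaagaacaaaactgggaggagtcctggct
Ifi203: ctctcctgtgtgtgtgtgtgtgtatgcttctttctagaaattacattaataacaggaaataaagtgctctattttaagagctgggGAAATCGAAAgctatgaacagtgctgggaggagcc

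Other interferon-stimulated genes did not move as a block. Of 40 past the floor, 3 were lower in cMoP and 2 were higher, with a median of -0.35 and 29 negative differences. Samd9l, an antiviral protein, was at 4.92 in cMoP and 8.16 in CDP, and Ifi27l2a at 8.26 and 10.38. Irf7, the interferon-amplifying factor, was at 5.65 in cMoP and 6.69 in CDP. The guanylate-binding proteins Gbp7 (8.45 in cMoP and 6.91 in CDP) and Gbp3 (9.03 and 8.01) went the other way.

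Of 38 lymphoid and dendritic factors, 7 were lower in cMoP, 0 were higher and 33 differences were negative, with a median of -0.42. Bcl11a was at 8.39 in cMoP and 10.16 in CDP, Satb1 at 8.80 and 10.41, and Bach2 at 5.05 and 6.72. Zeb1 was at 6.05 in cMoP and 7.50 in CDP, and Nfil3, which acts upstream of Id2 in dendritic cells, at 8.41 and 9.53. Of 9 inhibitors of E proteins and E proteins, 1 was higher and 2 were lower. Id2, an inhibitor needed for type 1 dendritic cells, was at 5.61 in cMoP and 8.01 in CDP, and the other lower one was Tcf4, given above. Id1 was at 7.52 in cMoP and 6.43 in CDP, opposite to Id2. Stem and granulocytic factors had 2 of 36 higher and 2 lower. Tfec, of the MiT family, was at 11.03 in cMoP and 8.85 in CDP, and Cebpe, a factor of granulocyte maturation, at 7.24 and 6.15. Sox4 was at 7.16 in cMoP and 8.43 in CDP, and E2f7 at 7.76 and 8.91. Of 39 KLF and early response genes 1 (2.56%) was higher and 3 (7.69%) were lower. In this list 31 differences were negative and 7 positive, with a median of -0.30. The higher one was Gadd45b, a stress-response gene, at 8.04 in cMoP and 6.60 in CDP. The lower ones were Zfp36, which destabilises messenger RNA (8.49 in cMoP and 10.04 in CDP), Dusp1, a phosphatase of MAP kinases (7.18 and 8.74), and Btg2 (7.94 and 9.20).

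The factors usually named for the choice between these branches differed less. Of 9 IRF genes past the floor 1, Irf7, was past 2-fold at -1.04, but not after quantile normalization (-0.93), centring the arrays (-0.98) or centring by level (-0.89). Irf8 differed by -0.62. Of the 6 C/EBP genes, Cebpe was past 2-fold, at 7.24 in cMoP and 6.15 in CDP. Cebpa was at 8.69 in cMoP and 8.36 in CDP, and Cebpb at 8.09 and 7.52. The C/EBP-type motif TTGCNNAA, on either strand, was present in 43 of 267 promoters of the higher genes (16.1%), in 12 of 179 of the lower genes (6.70%), in 8.70% of all genes past the floor and in 10.8% of all promoters tabulated. The E-box CACGTG was present in 9.36% of the higher genes, 8.38% of the lower genes and 10.1% of all genes past the floor. These are counts of letters and show no binding.

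Surface receptors differed on both sides. Among paired and inhibitory receptors, 4 of 35 were higher in cMoP, 10 were lower and the median was -0.37. Lilra6 was at 6.70 in cMoP and 8.54 in CDP, and the inhibitory receptor Pirb at 7.78 and 9.09. Slamf7 was at 4.17 in cMoP and 6.45 in CDP, and Cd244a at 6.31 and 7.97. Siglece (8.38 in cMoP and 6.94 in CDP) and Cd84 (8.49 and 7.22) were on the other side. Among C-type lectins of myeloid cells 5 of 15 were higher in cMoP and 3 lower. Clec5a, which signals through Dap12, was at 9.19 in cMoP and 6.41 in CDP, and Clec4e, a sensor of mycobacterial glycolipid, at 6.97 and 4.43. Fcgr3, a receptor for IgG, was at 10.83 in cMoP and 6.80 in CDP, a 16.3-fold difference, whereas its adaptor Fcer1g was at 11.90 and 12.29. Tlr4 and Lbp, a receptor and a carrier of lipopolysaccharide, were both higher in cMoP. Tlr4 was at 7.30 in cMoP and 5.18 in CDP, and Lbp at 10.92 and 8.49. Aoah, which inactivates lipopolysaccharide, was at 8.80 in cMoP and 6.42 in CDP.

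Receptors for cytokines and soluble ligands counted 4 higher in cMoP and 6 lower among 46, 35 negative differences, and a median of -0.28. Besides Flt3 and Il7r, the lower ones were Lifr (4.53 in cMoP and 6.83 in CDP), Il6st (9.87 and 11.30), Il12rb2 (6.52 and 7.69) and Bmpr2 (8.15 and 9.27). Lifr and Il6st encode both chains of the leukaemia inhibitory factor receptor. The higher ones were Csf3r, the G-CSF receptor (8.96 in cMoP and 7.41 in CDP), Ifngr1 (10.40 and 8.91), Kit, and Il1rl2 (6.97 and 5.85). Flt3 and Kit are in these counts but belong to the gates and are no finding. Chemoattractant receptors had 2 of 15 higher and 2 lower, Cx3cr1 and Gpr183. Ltb4r1, the leukotriene B4 receptor, was at 8.55 in cMoP and 6.82 in CDP, and Cxcr2 at 6.88 and 5.37. Gpr183, the oxysterol receptor that positions dendritic cells, was at 7.35 in cMoP and 9.28 in CDP. Of 11 eicosanoid genes 2 were higher and 1 lower. Pla2g4a, a phospholipase that releases arachidonic acid, was at 8.24 in cMoP and 6.72 in CDP. Lta4h, which makes leukotriene B4, was at 10.24 in cMoP and 9.13 in CDP, a difference that was 0.98 after quantile normalization and so under 2-fold. Hpgd, which degrades prostaglandins, was at 5.37 in cMoP and 6.99 in CDP. Other G protein-coupled receptors had 2 of 35 higher and 5 lower, with 18 positive and 17 negative differences. Adgre5, an adhesion receptor, was at 9.10 in cMoP and 7.62 in CDP. Ptger4, a prostaglandin E2 receptor, was at 7.13 in cMoP and 9.06 in CDP, and P2ry6 at 5.57 and 7.19.

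Several genes of cell shape and signalling were lower in cMoP. Rnd3, a small GTPase, was at 5.91 in cMoP and 9.26 in CDP, at least 7.95-fold lower. Marcks, a membrane and actin regulator, was at 6.12 in cMoP and 9.06 in CDP, and Marcksl1 at 8.50 and 9.68. Lsp1, an actin-binding protein of leukocytes, was at 9.12 in cMoP and 11.39 in CDP. The formin Fmnl2 was at 6.43 in cMoP and 8.50 in CDP, and the actin-severing factor Dstn, on the other side, at 11.18 and 8.65. Integrin and adhesion genes had 5 of 37 lower and 1, Adgre5, higher. L1cam was at 6.41 in cMoP and 8.86 in CDP, Plxnb2 at 7.29 and 9.22, and Itgb7 at 7.06 and 8.72. Kinase and adaptor genes had 6 of 60 lower and 1, Ptpn22 (8.42 in cMoP and 7.35 in CDP), higher. Fyn, a Src family kinase, was at 6.16 in cMoP and 8.19 in CDP, and Camk1d at 5.77 and 8.26. Rasgrp4, a Ras activator, was at 6.35 in cMoP and 8.26 in CDP. Rnd3, Marcks, Lsp1, Camk1d and Rasgrp4 were also high in the classical monocyte, at 10.38, 9.15, 12.04, 9.16 and 9.47, so cMoP was the lowest or next to the lowest of the 5 arrays for each. S100, annexin and galectin genes had 4 of 25 higher and 4 lower. S100a4 (10.18 in cMoP and 11.89 in CDP), S100a6 (10.41 and 11.95) and Ahnak (7.35 and 9.48) were lower, opposite to S100a8 and Anxa1 (10.42 and 8.52).

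Cell cycle genes gave no common shift past 2-fold. DNA replication genes had 0 of 49 past it in either direction and a median of 0.22. Mitosis genes had 0 of 68 higher and 4 lower, with 55 negative differences and a median of -0.26. Kif23, a kinesin of cytokinesis, was at 9.82 in cMoP and 11.24 in CDP, and Mki67 at 10.64 and 11.67. After centring the arrays, 1 of the 4 stayed past 2-fold. Ccnd1, cyclin D1, was at 8.62 in cMoP and 10.21 in CDP, and Bcl2, the survival factor, at 9.84 and 11.04.

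Small RNA genes split by class. The array measured 296 microRNA genes by their symbols, 81 of them past the floor, and 0 were higher in cMoP and 4 lower (4.94%). Of the 81 differences 7 were positive, 69 negative and 5 equal, with a median of -0.32 against 0.015 for all genes. Whether these probe sets read the mature form, a precursor or a host transcript is not stated. The mature sequences of the 4 lower genes are shown to identify them, 5′ to 3′ from RefSeq (GRCm38.p6), with the seed (bases 2 to 8) in capitals. Mir17 and Mir18 lie in 1 cluster on chromosome 14, and their main arms differ within the seed. Mir103-2 is on chromosome 2 and Mir505 on chromosome X. Of the 81 genes, 73 had a mature sequence in the RefSeq table.
mmu-miR-17-5p: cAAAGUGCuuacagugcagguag
mmu-miR-18a-5p: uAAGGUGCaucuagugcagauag
mmu-miR-103-3p: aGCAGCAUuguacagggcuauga
mmu-miR-505-3p: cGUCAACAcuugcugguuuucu

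Mir103-2 was at 6.36 in cMoP and 8.19 in CDP, Mir18 at 6.43 and 7.76, Mir17 at 7.01 and 8.09, and Mir505 at 6.51 and 7.57. MDP held the highest or nearly the highest value of the 3 progenitors for each, at 8.22, 8.56, 8.88 and 7.45. The neighbours of Mir17 and Mir18 within 10 kb (Mir19a, Mir20a, Mir19b-1 and the host gene Mir17hg) lay under the floor in both cMoP and CDP, so the cluster as a unit could not be read. Small nucleolar RNA genes, many of which guide modification of ribosomal RNA, ran the other way. Of 42 past the floor, 8 were higher in cMoP and 1, Snora30, lower, with 30 positive differences and a median of 0.35. Snora73b was at 9.88 in cMoP and 8.07 in CDP, Snora73a at 8.93 and 7.54, and Snord95 at 8.64 and 7.39. Snora30 was at 7.07 in cMoP and 8.07 in CDP.

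**Figure D4:**
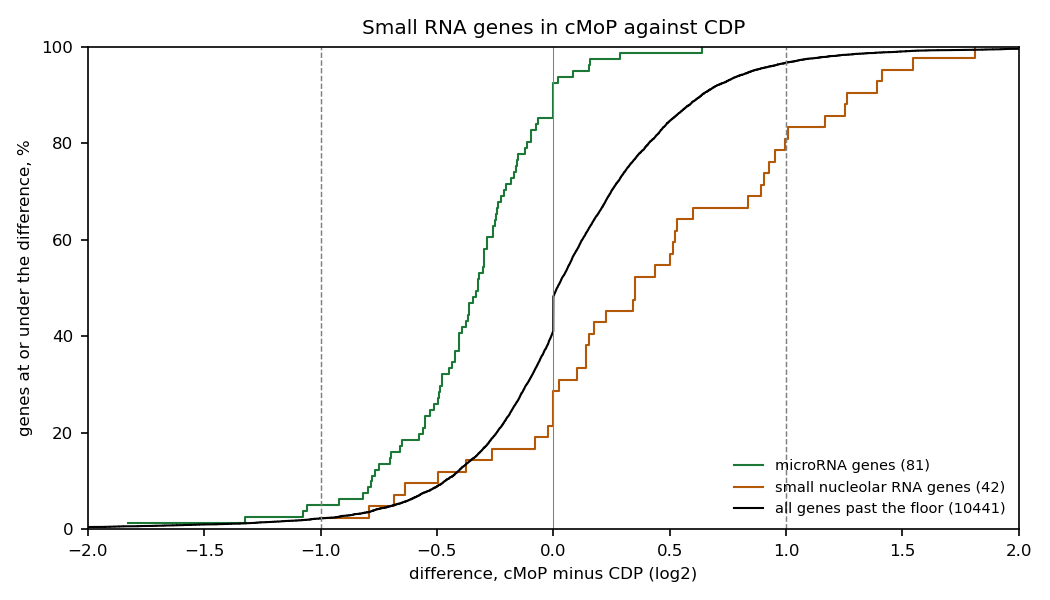
Cumulative percent of genes at or under each difference (cMoP minus CDP, log2 units) for 81 microRNA genes (green), 42 small nucleolar RNA genes (orange) and all 10441 genes past the floor (black), with dashed lines at 2-fold. The green curve lies left of the black one (median -0.32) and the orange curve right of it over most of its length (median 0.35). Differences beyond 2 log2 units are not drawn.

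Probe sets without an annotated gene differed from the named ones. Of 5189 such probe sets past the floor, 233 (4.49%) were higher in cMoP and 672 (12.95%) were lower, and their median was -0.13. Among 11525 probe sets with 1 symbol past the floor, 385 (3.34%) were higher in cMoP and 260 (2.26%) were lower, with a median of 0.023. What the probe sets without an annotated gene measure is unknown here, and their part in the microRNA result was not tested.

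The other 3 arrays place the 567 genes past 2-fold. MDP lay strictly between cMoP and CDP for 293 of the 337 higher genes (86.9%) and 180 of the 230 lower genes (78.3%), against 39.9% of all genes past the floor. A gene chosen because cMoP and CDP are far apart leaves more room between them, so these shares are a description. MDP was at or above both for 17 of the higher and 30 of the lower genes, and at or below both for 27 and 20. The classical monocyte lay above the midpoint of cMoP and CDP, and so on the cMoP side, for 144 of the 337 higher genes (42.7%). For the 230 lower genes it lay above the midpoint, and so on the CDP side, for 137 (59.6%). Over all genes past the floor it was above the midpoint for 44.4%. On the nonclassical monocyte array the values above the midpoint were 95 higher genes (28.2%), 125 lower genes (54.3%) and 40.8% of all genes. The share of the higher genes on the classical monocyte array was thus close to that of all genes. Ms4a3 and Prss57 were on the CDP side on both monocyte arrays, and Mgst1 was on the cMoP side on both.

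**Figure D5:**
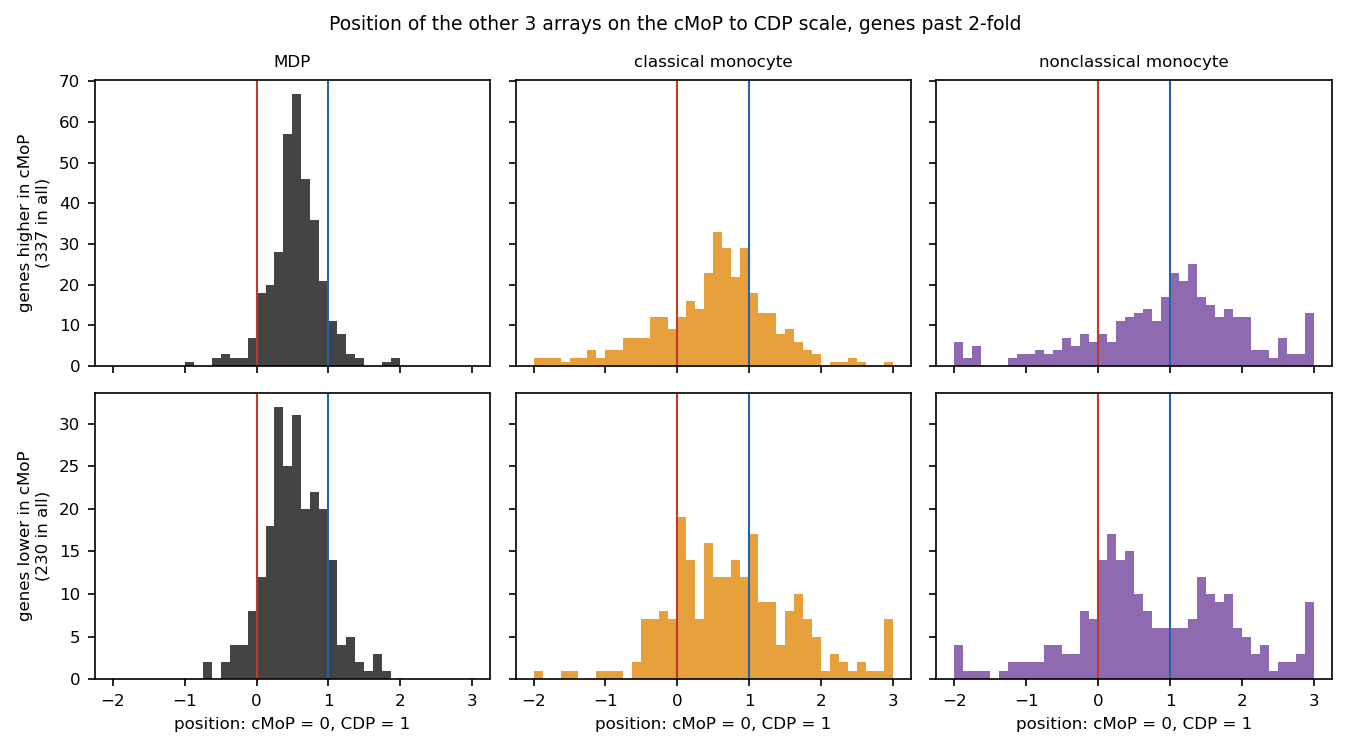
Number of genes by the position of the MDP, classical monocyte and nonclassical monocyte values on a scale where the cMoP value is 0 (red line) and the CDP value is 1 (blue line), for the 337 genes higher (top) and 230 lower (bottom) in cMoP. Values beyond the ends of the axis are drawn in the outermost bars. MDP lies between the lines for 86.9% and 78.3% of genes, and the monocytes spread on both sides.

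Genes just inside and just outside the threshold of 1 log2 unit show how narrow it is. Eif3d, Rpp40 and Adgrl4 were just inside it on the higher side, and Csgalnact2, Wdr61 and Chchd7 just outside. Xist, Snora30 and Tet3 were just inside on the lower side, and Mfsd6, Auts2 and Cd180 just outside. At the floor, 6330403K07Rik, Arhgef5 and Wnt5b were just inside and 1700120B22Rik, Myo15b and Gm10384 just outside (all with a higher value of 6.27). All 567 genes past 2-fold comprise 230 in the gene lists used here and 337 outside them.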

How the data were processed

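RNA from 5 sorted populations was labelled with the Nugen Encore Biotin kit, per the labels' protocols, and measured on 1 array each. The deposited values are log2 intensities in a single table (35556 probe sets). The log2 base was inferred from the values, and background correction, normalization, summarization, software and genome build are not stated in any source used here. Each fold given here would change if the base were another. The number of arrays limits the precision, and p-values were not computed.

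Of the probe sets, 21789 carry 1 gene symbol in the platform annotation, 1621 several, and 12146 are not listed there. Only the first kind was named, which gave 19938 genes. For 999 genes with several probe sets, the value is that of the probe set whose mean over all 5 arrays was highest. The floor, thresholds (2-fold and 4-fold) and bounds are described with the results. Differences in log2 units use the deposited values even where 1 side lies under the floor. The lists hold 61 groups of genes and 10 groups of markers, in all 2212 genes written and 1971 measured, and a gene can stand in more than 1 list. Not every list is reported here. The members, lists and tests were chosen with earlier results of these data known, and the small RNA classes, the motifs, the promoters shown and the alternative centring by level were chosen after values were seen. Lists are described by counts and medians beside those of all genes, with no test.

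Genes named are the 30 largest differences in each direction, up to 8 members of each list past 2-fold in each direction, genes of the sort, the 3 genes on each side of a threshold, the cell type markers, and members of families of at most 12 measured genes. Other genes were named after their values were seen, which holds for Ldha, Hk2, Slc2a1, Hspa5, S100a9, Mmp8, Camp, Spi1 and the genes of the stress element. Alternatives were quantile normalization, centring the arrays, a floor at the upper quartile, no floor, the mean of probe sets, and centring by level over 20 bins. Promoters (250 bases before the start) and mature microRNAs came from RefSeq (GRCm38.p6), and motifs were searched on both strands. The contrast code was tested on simulated data. Python 3.11.15, pandas 2.3.3 and NumPy 2.4.6 were used.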

Additional observations from a re-analysis of the deposited data

How the results depend on the processing

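The numbers of higher and lower genes were 308 and 228 after quantile normalization, 409 and 198 after centring the arrays, 250 and 149 with the floor at the upper quartile (5539 genes tested), 347 and 249 without a floor, 335 and 220 with the mean of probe sets, and 276 and 250 with centring by level, against 337 and 230 as deposited. The lower count of 149 was the one that moved by over 1.5 times, with fewer genes tested. The share of higher among called genes ran between 52.5% and 67.4%, against 59.4%. The all-gene median was 0.13 with the upper-quartile floor and 0.079 or less under the other settings.

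Named genes past the floor numbered 231 as deposited, 230 after quantile normalization, 229 after centring, 176 with the upper-quartile floor and 231 under the other settings. Among those with a value 0 changed direction, and at most 14 (centring by level) lost 2-fold. Of genes printed here, Adgrl4, Eif3d, Gbp3, Irf7 and Lta4h did so after quantile normalization and centring by level, Irf7 and Mki67 after centring the arrays, and Eif5a (0.50) and Gstm3 (0.97) with the mean of probe sets. Of 63 list medians 15 changed sign under at least 1 setting. For 14 of them the median as deposited was at most 0.13 in size, so these have no settled direction, class I presentation among them. The other was the Fc receptor list, at 0.43 as deposited and -0.043 without the floor, where dim members enter. Medians moved by over 0.25 in 12 of 60 lists with the upper-quartile floor, in 2 of 63 after centring the arrays (myeloid C-type lectins and complement and coagulation) and in 7 of 63, beside the Fc receptor list, without a floor. With the upper-quartile floor they were 2.32 for later granule genes, -2.15 for conventional dendritic, -1.40 for class II presentation and -0.79 for lymphoid-primed genes, against 1.53, -1.18, -0.60 and -0.50. Without a floor the plasmacytoid median was -0.65, against -0.92. No paired analysis was possible because each population has 1 array. Values near the floor limit the size of differences, and no setting stands in for replicates.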

Other observations

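Several of the largest differences belong to genes of no common group. Atxn1, a transcriptional co-repressor, was at 7.99 in cMoP and 5.39 in CDP, and MDP (7.96) lay beside cMoP. Scnn1a, a sodium channel subunit, was at 7.95 in cMoP and 5.89 in CDP. Dio2, which activates thyroid hormone, was at 6.77 in cMoP and 4.68 in CDP, and under the floor on the other 3 arrays. Ppic, a cyclophilin, was at 8.72 in cMoP and 6.72 in CDP. On the CDP side, Rtn4rl1, a Nogo receptor relative, was at 5.97 in cMoP and 9.08 in CDP, Srgap3 at 6.28 and 8.76, and Upk1b, a tetraspanin of the bladder lining, at 5.66 and 8.03. Srgap3 and Upk1b were lower in the other 3 populations than in CDP, with MDP at 7.05 and 6.09. Of 24 secreted cytokine and chemokine genes past the floor, 2 were higher in cMoP, Il15 (7.79 in cMoP and 6.18 in CDP) and Hgf (6.50 and 5.45), and 0 were lower. Both CDP values lay under the floor, and the Hgf value in cMoP was close to it. Of 13 complement and coagulation genes 3 were higher, among them F10 (9.16 in cMoP and 7.63 in CDP) and Tfpi (7.80 and 6.62), and 1, the integrin chain Itgax (5.16 and 6.93), was lower.

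The probe sets without an annotated gene also differed between cMoP and MDP. Of 5320 past the floor, 68 (1.28%) were higher in cMoP and 782 (14.7%) were lower, against 158 and 170 of 11320 probe sets with 1 symbol. Between CDP and MDP, 169 of 5486 (3.08%) were higher in CDP and 336 (6.12%) lower. These comparisons share arrays with each other. Xist was at 10.98 in cMoP and 11.99 in CDP, and its bearing on the sex of the mice was not tested.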
